A study of Solanum virginianum with 2 samples.

Results

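The small RNAs described here are the 20, 21 and 22 nt sequences of eggplant pistils whose deposited name begins with PC and gives no known miRNA family. They were taken from the small RNA table by that name and length alone, which gave 76 of the 686 listed sequences, and their predicted target transcripts were read from the degradome table by the same names. The tissue was pistil of 'B3-3', a long purple eggplant on which a single plant bears S-morph flowers (short style) and L-morph flowers (long style). Each of the 2 libraries, a small RNA library and a degradome library that captures the 5′ ends of cut RNA, mixed pistils of both morphs, so no morph could be set against the other. For both, the labels name days 1 to 3 and 3 to 6 after budding, while the degradome protocol also counts phase 5 (days 13 to 15). The organism field reads Solanum virginianum and the series title Solanum melongena.

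Plant miRNAs are cut by Dicer-like enzymes from hairpin RNAs as a duplex of both arms of the hairpin, with short overhangs at the 3′ ends. Afterwards 1 strand is loaded into an Argonaute protein. The Argonaute that carries most plant miRNAs favours a uracil as the first base, while those that carry the 24 nt small RNAs of transposon silencing favour an adenine. A loaded miRNA pairs along nearly its whole length with a transcript and guides a cut opposite its middle, and the degradome captures the 5′ end that such a cut leaves. A conserved miRNA can be named by likeness to other plants, whereas a sequence found in 1 lineage has no such name.

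The 5 sequences with 100 or more reads are shown first, followed by 2 with lower counts whose predicted transcripts are described below. Capitals mark the seed, bases 2 to 8.
PC-5p-24737_36: gUGGACCAgcguggauuggggg
PC-3p-1358_405: uAUGUUCUcaggucgccccua
PC-3p-3437_200: uAAAUGUUuuccgaguaucuuu
PC-5p-2743_235: uUAUACAGaggaaccgcugucg
PC-5p-16998_53: uUCGAUACgcaccugaaucga
PC-5p-317003_2: aCGCGAGAaguccauugaaccu
PC-5p-444112_2: uUGGGGCAaguaauuguagcu
The 76 sequences had 76 different seeds, so none of them could be grouped with another by a shared seed.

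The 76 sequences held 2074 of the 135737 listed reads, or 1.53% (95% interval 1.46 to 1.59%, exact Clopper-Pearson, which covers counting error only). The named sequences of the same lengths, 211 in number, held 79.6%. Most of the unnamed ones were rare, as 25 had 1 read, 33 had 2 to 9 reads and 18 had 10 or more, with a median of 3 reads. The median was 12 for the named sequences of these lengths and 3 for the 222 unnamed sequences of 24 nt. By length, 46 of the 76 had 21 nt (886 reads), 25 had 22 nt (1129 reads) and 5 had 20 nt (59 reads).

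A few sequences supplied most of these reads. PC-5p-24737_36 had 616 reads, 29.7% of the reads of the 76. PC-3p-1358_405 had 448 reads and PC-3p-3437_200 had 206. PC-5p-2743_235 had 165 reads and PC-5p-16998_53 had 111, and these 5 together held 74.5% of the reads. The next 7 lay between 56 and 31 reads, namely PC-3p-25180_37 (56 reads), PC-3p-20509_45 (52 reads), PC-3p-44250_21 (42 reads), PC-5p-317003_2 (41 reads), PC-5p-63216_13 (39 reads), PC-3p-29583_30 (31 reads) and PC-5p-69636_12 (31 reads).

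**Figure D1:**
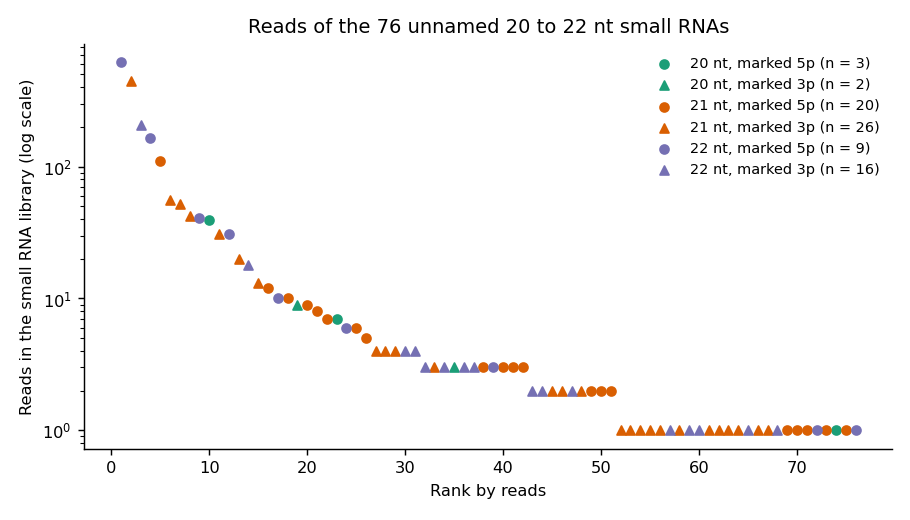
Reads of each of the 76 unnamed 20 to 22 nt sequences in the small RNA library (vertical axis, log scale) by rank (horizontal axis), coloured by length and with the marker showing the arm given in the name. The counts fall from 616 to 1, and 25 sequences sit at 1 read.

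The first base of these sequences was uracil in 37 of 76 (48.7%, 37.0 to 60.4%) and adenine in 21 (27.6%, 18.0 to 39.1%). In the named sequences of the same lengths uracil came first in 111 of 211 (52.6%, 45.6 to 59.5%). In the unnamed 24 nt sequences it came first in 39 of 222 (17.6%, 12.8 to 23.2%), where adenine led with 152 (68.5%, 61.9 to 74.5%). Related sequences are not independent, so these intervals are too narrow and no test was made of the differences. Within the 76, uracil came first in 23 of 46 sequences of 21 nt, 11 of 25 of 22 nt and 3 of 5 of 20 nt.

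Counted by reads the picture depended on PC-5p-24737_36, which begins with guanine. Sequences that begin with uracil held 57.9% of the reads of the 76, beside 94.3% in the named sequences of the same lengths. Those that begin with guanine held 32.4% of the reads of the 76. Among the 21 nt sequences uracil held 86.2% of the reads, and among the 22 nt sequences 34.5%. In the named 22 nt sequences it held 99.1%. The names mark 32 of the 76 as 5p (1112 reads) and 44 as 3p (962 reads).

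**Figure D2:**
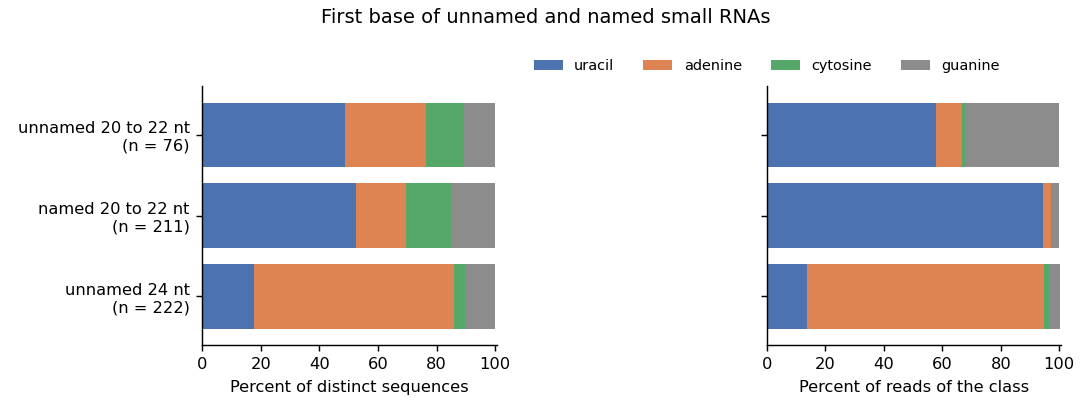
First base of 3 classes of small RNAs, as the percent of distinct sequences (left) and of the reads of each class (right). The unnamed 20 to 22 nt sequences begin with uracil in 48.7% of cases, near the 52.6% of named sequences of these lengths. By reads the uracil shares of these classes are 57.9% and 94.3%. The unnamed 24 nt sequences begin with adenine in 68.5% of cases.

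Some unnamed sequences were close to a named one in the same table. PC-3p-1358_405 shared a run of 20 bases with an entry named as a variant of tobacco miR398 and a run of 18 bases with bdi-miR398a, from which it differed at 2 of 21 bases. The miR398 family is known for copper superoxide dismutase and other copper protein targets. A further miR398 entry, vvi-miR398a_L+1R-1 (70 reads), differed from it at 2 of 20 aligned bases. PC-3p-1358_405 had 448 reads, against 111 for the tobacco variant and 64 for bdi-miR398a, so the unnamed form had more reads than any of these named entries. PC-3p-3437_200 contained all 21 bases of an entry named as a variant of tobacco miR6020a-5p and had 1 base more at its 3′ end. It had 206 reads against 10 for the named entry. The unnamed name carries the mark 3p and the named one 5p, although the sequences run the same way. The third, PC-3p-439084_3 with 3 reads, differed at 1 of 18 aligned bases from an entry named after the other arm of a melon MIR156j. These 3 held 657 of the 2074 reads, and they were the only members with a run of at least 16 bases, or at most 2 mismatches, to a named sequence. The named relatives with a shared run of at least 16 bases are shown, with the longest shared run in capitals.
nta-miR398_L+1R-1_1ss3GA: aUAUGUUCUCAGGUCGCCCCU
bdi-miR398a: ugUGUUCUCAGGUCGCCCCUg
nta-miR6020a-5p_L+1R-1_1ss11TC: UAAAUGUUUUCCGAGUAUCUU

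The table also held sequences that pair with each other like the arms of a hairpin. Every member was folded with every other listed sequence, 49210 combinations in all. A duplex with at least 17 base pairs, both 5′ ends paired and 3′ overhangs of exactly 2 bases on both strands was found in 4. The first was PC-5p-2743_235 (165 reads) with PC-3p-31665_28 (20 reads), with 19 base pairs, an energy of -25.3 kcal per mol and 8.25 times as many reads on the 5p strand. The second was PC-5p-16998_53 (111 reads) with PC-3p-91369_10 (13 reads), with 18 base pairs, -28.3 kcal per mol and 8.54 times as many reads on the 5p strand. In both, the deposited marks 5p and 3p name opposite arms, and the strand with more reads begins with uracil. The third joined PC-5p-497421_2 and PC-3p-2501207_1, with 3 reads and 1 read, and the fourth was weak at -9.4 kcal per mol. In the first and second duplex, capitals mark the paired bases.
PC-5p-2743_235: UUAUACAGAGGAACcGCUGUcg
PC-3p-31665_28: ACAGCGUUUCUCUGUAUAAcg
PC-5p-16998_53: UUCGAUACGcACCUGAAUCga
PC-3p-91369_10: GAUUCAGGUuCGUAUCGAAac

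With overhangs of 1 to 3 bases, 22 combinations passed, which took in 21 of the 76 members, at energies from -36.8 to -7.6 kcal per mol. Listed combinations without a member were not folded, so no background share stands beside this count or that with exact overhangs. Random sequences were folded only to test the finder, and the share of them that passed is not given here. PC-3p-1358_405, the relative of miR398, paired with PC-5p-69636_12 (31 reads, 19 base pairs, -26.6 kcal per mol) and with PC-5p-132923_7 (10 reads, 18 base pairs, -25.8 kcal per mol). Both of these also paired with named miR398 entries, PC-5p-132923_7 most strongly with nta-miR398_1ss14CT (18 base pairs, -33.0 kcal per mol). PC-5p-1408812_1 (1 read) paired over 20 bases with an entry named after miR164c-3p (25 reads, -36.8 kcal per mol). PC-5p-230404_3 (3 reads) paired over 20 bases with nta-MIR156i-p3 (12 reads, -36.3 kcal per mol). Capitals again mark the paired bases.
PC-3p-1358_405: UAUGUUCUCAGGUCGcCCCUa
PC-5p-69636_12: AGGGaUGAUUUGAGAACAUAug
PC-5p-1408812_1: UUGGAGAAGGAGAACACGUGc
aly-miR164c-3p_2ss11AC14CT: CACGUGUUCUCCUUCUCCAAc
PC-5p-230404_3: AUGACGGAAGCAUAGAGAGCac
nta-MIR156i-p3: GCUCUCUAUGCUUCUGUCAUc
The genome was not used here, so whether the strands of any duplex come from 1 hairpin was not tested.

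The names of unnamed sequences end in a number that no label or header explains, and it was set beside the deposited reads. It equalled the reads in 38 of the 76, lay below them in 34 and above them in 4. Over all 349 unnamed sequences these counts were 162, 177 and 10, and over the 222 of 24 nt they were 100, 116 and 6. In 2 of the 76 sequences the reads were over 17 times the number. PC-5p-317003_2 had 41 reads and the number 2, a ratio of 20.5, and PC-5p-24737_36 had 616 reads and the number 36, a ratio of 17.1. The next highest ratio was 4, in PC-5p-444112_2 with 8 reads and the number 2.

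**Figure D3:**
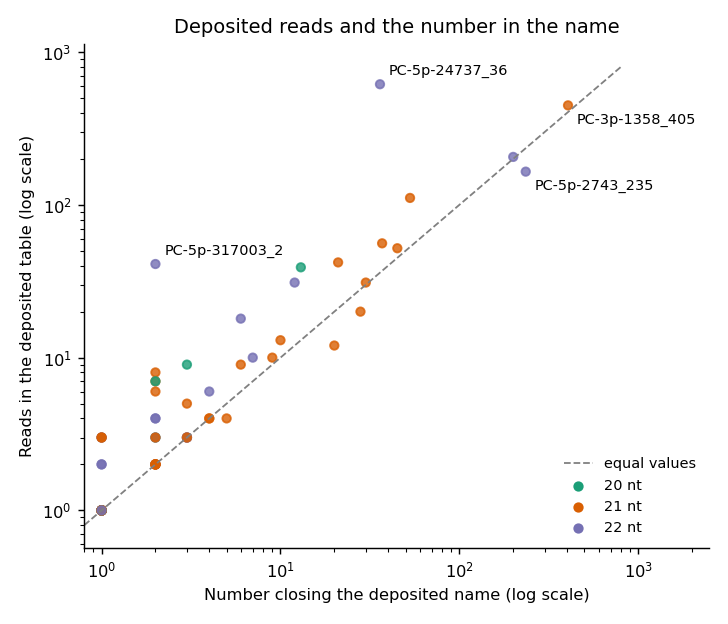
Deposited reads (vertical axis, log scale) against the number that closes the deposited name (horizontal axis, log scale) for the 76 sequences, coloured by length; points with equal values overlap and the dashed line marks equal values. PC-5p-24737_36 (616 reads, number 36) and PC-5p-317003_2 (41 reads, number 2) lie farthest above the line.

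The same 2 sequences were predicted on shared transcripts. PC-5p-24737_36 aligned without any penalty (alignment score 0, on a scale from 0 to 4 where lower is better) to Sme2.5_00609.1_g00017.1, Sme2.5_02162.1_g00010.1 and Sme2.5_03005.1_g00001.1, the last with AtMg00860, a symbol of the Arabidopsis mitochondrial genome. It also aligned at score 1.5 to nucleotides 163 to 184 of Sme2.5_22522.1_g00001.1. PC-5p-317003_2 aligned at score 1.0 to nucleotides 398 to 419 of that same transcript, whose symbol is YLR154W-F. Both were also predicted on Sme2.5_03962.1_g00003.1. YLR154W-F and ART3, which a further transcript of PC-5p-317003_2 carries, are symbols of baker's yeast reading frames that lie in the ribosomal DNA. Across the whole degradome table these symbols were listed for 5 small RNAs. The other 3 were entries named miR2911 (6495 and 5202 reads) and MIR2118e (3 reads). Whether PC-5p-24737_36 and PC-5p-317003_2 are pieces of ribosomal RNA was not tested.

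Runs of 12 bases were counted on both strands, and the second most shared was in 4 of the 76 sequences. Runs that overlap the most shared one also reach 4, so this gives no count for unrelated runs. The most shared run recurred in 5 of the 76 sequences. It is printed in capitals, as AGAGUCCGAGCA in the first and second sequence and as its reverse complement in the other 3.
PC-3p-2003272_1: uauuuuuggAGAGUCCGAGCA
PC-5p-319895_2: uuggAGAGUCCGAGCAacuua
PC-5p-45225_20: ugcuauguUGCUCGGACUCUu
PC-5p-497421_2: uaaguUGCUCGGACUCUccaa
PC-5p-1101266_1: ccuaaguUGCUCGGACUCUcc
These 5 had 12 reads at most and 23 in all. The run occurred in 20 of all 686 listed sequences (2.92%), 9 as written and 11 as the reverse complement. Of these, 13 were unnamed 24 nt sequences (5.86% of 222) and 0 were named, and 2 had 25 nt. PC-5p-319895_2 lay whole inside the 24 nt PC-3p-1013584_1 and PC-3p-3358863_1, which carry the opposite arm mark. PC-3p-2003272_1 paired over 18 bases with sly-MIR5303-p5 (25 reads, -29.1 kcal per mol), an entry named after tomato miR5303.

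The degradome table listed 675 pairs of a member and a transcript, for 67 of the 76 sequences and on 559 transcripts. The other 9, led by PC-3p-31665_28 with 20 reads, had no listed pair. The 5 with most predicted transcripts were PC-3p-29583_30 with 131, PC-3p-2003272_1 with 52, PC-5p-319895_2 with 48, PC-5p-497421_2 with 34 and PC-5p-1101266_1 with 27. All except PC-3p-29583_30 hold the shared run. The 5 members with that run made up 183 of the 675 pairs (27.1%), on 109 transcripts. The 5 members with 100 or more reads had 19 pairs in all, whereas the 25 members with 1 read had 241 (35.7%).

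**Figure D4:**
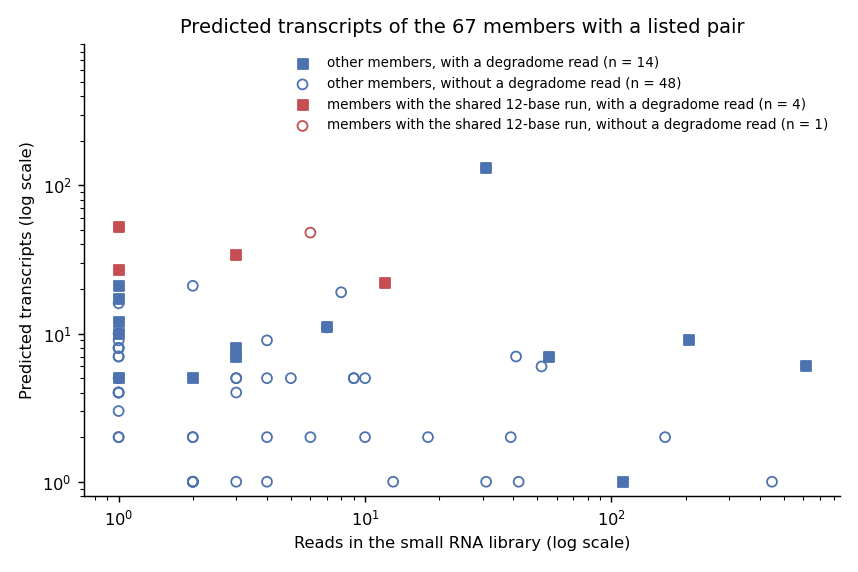
Predicted transcripts (vertical axis, log scale) against reads (horizontal axis, log scale) for the 67 members with a listed pair, red for the 5 that hold the shared run of 12 bases and filled squares where a pair had a degradome read. The red points lie between 22 and 52 transcripts, and PC-3p-29583_30 is highest with 131; points with equal values overlap.

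Cleavage reads were scarce at these predicted sites. Of the 675 pairs 23 had at least 1 degradome read (3.41%, 2.17 to 5.07%), beside 5.38% over all 18764 pairs. The share was 3.61% (2.84 to 4.52%) for unnamed 24 nt sequences and 9.50% (8.79 to 10.2%) for named sequences of 20 to 22 nt. Pairs of 1 small RNA are not independent, so these intervals are too narrow and no test of the differences was made. The authors sorted detected pairs into categories from 0, by convention the strongest peak on the transcript, to 4, a single read. Of the 23 pairs, 0 were in category 0 or 1, which allows a share of up to 13.0%, beside 12.7% of all 1010 detected pairs. There were 6 in category 2 (26.1%), so that categories 0 to 2 held 6 of the 23, beside 45.4% of all detected pairs, and 17 in category 4. An authors' p of at most 0.05 was reached by 0 of the 23, beside 12.3% of all detected pairs, and the lowest was 0.108. The most raw reads at any of the 23 sites was 5.

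**Figure D5:**
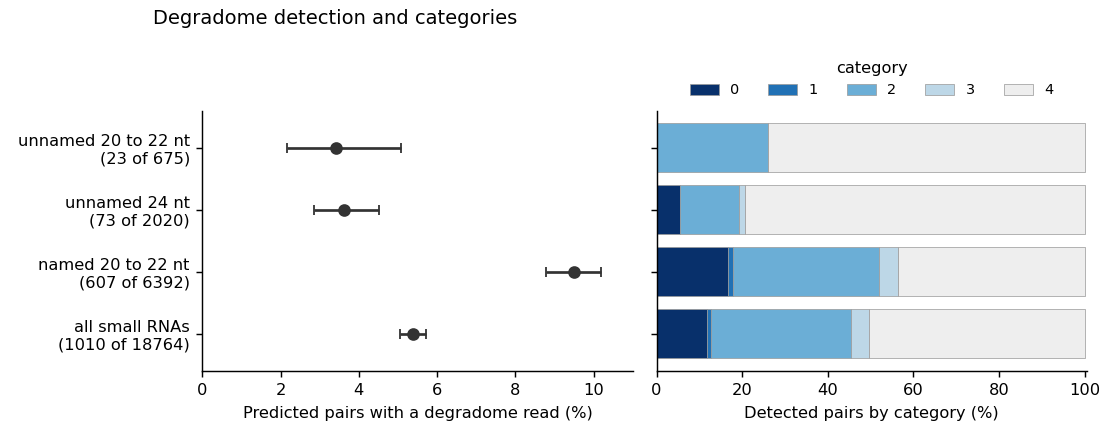
Left, percent of predicted pairs with a degradome read in 4 classes of small RNAs, with exact 95% intervals that cover counting error only; right, percent of the detected pairs of each class by the authors' category. The unnamed 20 to 22 nt sequences stand at 3.41%, with 6 of 23 detected pairs in category 2 and the rest in category 4.

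The 6 sites in category 2 were these. The SGS3 transcripts, whose Arabidopsis counterpart works with an RNA-dependent RNA polymerase in making secondary small RNAs, had 5 raw reads at nucleotide 570 of Sme2.5_05936.1_g00004.1 and 5 at nucleotide 1740 of Sme2.5_07718.1_g00003.1. The authors' normalized value was below the raw reads at both, 2.5 each, so the same reads may be counted at both. The pairing small RNA, PC-3p-2658491_1, had 1 read and an alignment score of 4.0. The OST3B transcript Sme2.5_00721.1_g00012.1, named after a subunit of the enzyme that adds sugar chains to proteins, had 3 raw reads at nucleotide 1806 for PC-5p-1101266_1. The SKU5 transcript Sme2.5_06478.1_g00004.1, named after an Arabidopsis cell surface protein of directional root growth, had 2 raw reads at nucleotide 768 for PC-3p-359576_2. Its pair had a score of 2.0 and the lowest authors' p of the 23, 0.108. The unannotated Sme2.5_00058.1_g00002.1 and Sme2.5_02708.1_g00010.1 had 2 raw reads each, for PC-5p-1255572_1 and PC-5p-497421_2. The SGS3 sites thus had the most raw reads of the 6, for a small RNA seen 1 time. The OST3B pair likewise joined a small RNA with 1 read at a score of 4.0, and both unannotated transcripts also had a score of 4.0.

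The 17 sites of category 4 rest on 1 raw read each. PC-5p-16998_53, which has a partner strand in the table, was paired with Sme2.5_05421.1_g00005.1, whose symbol At3g06240 is that of an Arabidopsis F-box protein, at nucleotide 77 (score 2.0, authors' p 0.164). It was the only transcript predicted for this small RNA. PC-3p-383892_2 was paired with RGLG2, a ubiquitin ligase in Arabidopsis (nucleotide 519, authors' p 0.289), and PC-3p-1083772_1 with MTX1, named after the mitochondrial import protein metaxin (nucleotide 1046, authors' p 0.365). PC-3p-3051475_1 was paired with CYP85A1, an enzyme of brassinosteroid synthesis, at nucleotide 770 (authors' p 0.434). The 3 full matches of PC-5p-24737_36 had 1 raw read and 0.250 normalized reads each, so a single read may be counted at all of them. PC-3p-29583_30, with 131 predicted transcripts, had 1 raw read and 0.143 normalized reads on 1 of them. Its symbol GIP is used for the polyprotein of a fruit fly retroelement, and 10 of the 131 transcripts (7.63%) carried the retroelement symbols GIP, pol or TY3B. Among the 559 transcripts of all members 40 did (7.16%, over 26 members), beside 2333 of the 12937 transcripts predicted for any small RNA (18.0%). The symbols POL and Tf2-1, which transcripts of some members carry, were left out of all these shares.

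Neighbouring sites were listed for several small RNAs at once. On the OST3B transcript, PC-5p-497421_2, PC-5p-1101266_1 and PC-5p-45225_20 were listed at nucleotides 1804, 1806 and 1807, with 1, 3 and 1 raw reads. All 3 hold the shared run. A further 10 small RNAs were predicted on this stretch, of which 3 were detected. The most reads on it were those of PC-5p-513841_2, an unnamed 23 nt sequence that is no member, with 4 raw reads at nucleotide 1800 (category 2, authors' p 0.153). On Sme2.5_02708.1_g00010.1 the run was met in both directions. PC-3p-2003272_1 had 1 raw read at nucleotide 580 and PC-5p-497421_2 had 2 at nucleotide 628. The most reads among the listed sites there also belonged to PC-5p-513841_2, which had 3 small RNA reads and 18 raw degradome reads at nucleotide 624 in category 0 (authors' p 0.00999). The nearest member site, at nucleotide 628, had 2.

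Most strong predictions carried no read, though a larger share did than over all 675 pairs. Of the 675 pairs 11 had a score of 0 and 82 a score of 2 or less (12.1%, beside 13.3% of all pairs). Of these 82, 6 were detected (7.32%), beside 3.41% of the 675 and 10.7% for all small RNAs at that score. The 11 full matches included 3 with a read, those of PC-5p-24737_36 described above, which may be 1 and the same read. PC-5p-444112_2, a 21 nt sequence with 8 reads, had 8 of the 11 full matches and 19 predicted transcripts. Their symbols were those of disease resistance genes in 9 of the 11 transcripts that carry one, among them RPPL1, RGA3, RGA4, R1B-16 and R1B-17. Such symbols were not counted over all predicted transcripts, so no background share stands beside this. Of its 8 full matches, R1B-16 lay at nucleotides 1045 to 1065, R1B-17 at 658 to 678, RGA3 at 814 to 834 and an RPPL1 transcript at 97 to 117, and 4 had no symbol. None of its 19 transcripts had a degradome read. PC-3p-3437_200, the 22 nt relative of miR6020a, was predicted on 9 transcripts, 5 of which carry the symbol N, a tobacco gene for resistance to tobacco mosaic virus. The best was Sme2.5_00269.1_g00013.1 at nucleotides 70 to 91 (score 0.5), which had no read. The N transcript Sme2.5_15154.1_g00002.1 had 1 raw read at nucleotide 103, a site that the named relative also holds. All 9 transcripts were among the 37 predicted for the named relative. Transcript levels were not measured, so a missing read does not show that a site is uncut.

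For the miR398 relative and for the most abundant strand of the duplexes without a named relative, the table listed few transcripts. PC-3p-1358_405 had 1 predicted transcript, Sme2.5_01078.1_g00005.1, annotated as enolase-phosphatase E1, an enzyme of methionine salvage, at nucleotides 1219 to 1238 (score 4.0) and without a read. The named miR398 relative was listed at nucleotides 1220 to 1239 of the same transcript with 3 raw reads at nucleotide 1230 (category 2, authors' p 0.0699). The normalized value there was 1.5, below the raw reads, so the same reads may also be counted elsewhere. PC-5p-2743_235 had 2 predicted transcripts, both unannotated and without a read.

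Searches for function words in the symbols and annotations found few of the 559 transcripts, of which 305 carried a symbol or an annotation. Protein kinase words matched 9 transcripts (1.61%, beside 1.29% of all 12937 predicted transcripts), with 0 detected. Over all small RNAs 11.4% of the kinase transcripts were detected. Transporter words matched 7 (1.25%, beside 0.580% of all), with 0 detected, beside 3 of 75 over all. Transcription factor words matched 5 (0.894%, beside 1.09%), with 0 detected, beside 19.9%. These words missed some transcripts, among them RAX2, annotated as a plant myb proto-oncogene protein and without a read. The ASG4 transcript of PC-5p-2626692_1, annotated as circadian clock associated 1, was detected but is likewise outside this count. Words for cytochrome P450 and glycosyltransferases matched 6 (1.07%, beside 0.356%), with CYP85A1 detected, beside 6.52%. Those for F-box and ubiquitin proteins matched 4 (0.716%, beside 0.340%), with UBP25, a ubiquitin protease, detected, beside 20.5%. The At3g06240 and RGLG2 transcripts described above were also detected, but they carry none of these words and are outside this count. Disease resistance words matched 3 (0.537%, beside 0.216%), with 0 detected, beside 25.0%. Translation words matched 3 (0.537%, beside 0.672%), with 0 detected, beside 26.4%. With so few transcripts a list, 0 detected is read as no more than a count. Most of the resistance symbols named above (such as N, RGA3 and R1B-16) carry no such word and so are not in that count. Words for cysteine and methionine metabolism, pentatricopeptide repeat proteins and retroelements matched 0, which does not show that such transcripts are absent. The 40 transcripts with the symbols GIP, pol or TY3B and the enolase-phosphatase E1 transcript carry none of the words of these lists.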

How the data were processed

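Per the labels' protocols, RNA came from a Norgen Biotek extraction kit, and small RNAs were prepared with an Illumina TruSeq Small RNA kit. The programs that named the small RNAs, predicted pairs and set categories, and the transcript build, are not given in the sources used here. The deposited small RNA values are read counts per listed sequence, and the deposited raw degradome values are read counts at the cleavage position. The authors' normalized reads and TPB are signal values, and TPB was not used. The authors' alignment score, category (also a score) and p-value were used as deposited. The p-value was taken as unadjusted.

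Members were chosen by name prefix and length, and members, word lists and rules were chosen with earlier results of these data known. There was 1 library of each kind and no replicate, so no test was made. Shares carry exact Clopper-Pearson 95% intervals. Reads were amplified and no molecular identifier is mentioned, so they are not independent molecules. The limit for a count of 0 is 3 counts of the total. Likeness meant a shared run of at least 16 bases, or at most 2 mismatches without gaps over at least 17 bases. Duplexes came from RNAduplex of ViennaRNA 2.7.2, with settings left at default. The finders of runs, mismatches and duplexes were tested on simulated data. Transcript positions are nucleotides along the transcript.

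Named small RNAs are the 12 with most reads, the 5 with most predicted transcripts, and any with a pair in category 0 or 1 or an authors' p of at most 0.05. Named pairs are the 10 detected pairs with most raw reads and the 10 with the lowest score. Further ones shown for a duplex, a shared run or a named relative were chosen after their values were seen. Tables were handled with pandas 2.3.3 under Python 3.11.15, intervals came from SciPy 1.17.1 with NumPy 2.4.6, and plots from matplotlib 3.10.9.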

Additional observations from a re-analysis of the deposited data

How the results depend on the processing

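No paired analysis was possible because there was 1 library of each kind and no test. The share of sequences that begin with uracil (48.7%) stayed within its interval under all 8 alternatives, from 44.0% with 22 nt alone to 3 of 5 sequences with 20 nt alone. The share of listed reads (1.53%) was 1.95% without reads of names known to match ribosomal or transfer RNA, with all 76 members kept. It was 1.05% without the 2 members that share a run of at least 16 bases with a named sequence, and 1.04% without the 2 members predicted on YLR154W-F transcripts. The 1.05% and 1.04% alternatives, and leaving out the members with the shared run of 12 bases, were chosen after seeing the data. The share of pairs with a degradome read (3.41%) was 0.889% with at least 2 raw reads required, and within its interval under the other 7 alternatives, from 2.67% with at least 1 normalized read to 4.17% at scores of 2.5 or less. The number of pairs in category 0 or 1 (0) was 6 with category 2 counted as well, beside 45.4% of all detected pairs, and 0 by the authors' p. With each position counted 1 time it was 0, which could not have come out otherwise. These changes follow from what each alternative leaves out or adds. With 25 of 76 sequences at 1 read and 17 of 23 detected sites at 1 read, single reads carry most statements about rare members, and the depth of the whole small RNA library is unknown, since the totals here cover the listed sequences only.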

Other observations

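The guanine and cytosine content of the 76 sequences was lowest in PC-3p-222055_4 (4 reads) and highest, at 72.7%, in PC-5p-980132_1 (1 read), with a median of 42.9%. The median was higher in the named sequences of the same lengths and lower, at 37.5%, in the unnamed 24 nt sequences. PC-5p-24737_36, the member with most reads, had 68.2%.

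Of the 76 sequences 5 shared their seed with another listed sequence. PC-3p-3437_200 shared it with its miR6020a relative, and the other 4 shared theirs with unnamed sequences of 19 to 24 nt that had 5 reads at most. PC-3p-246985_3 (21 nt, 3 reads) lay whole inside the 24 nt PC-3p-281354_3 (6 reads). PC-3p-2402565_1 (22 nt, 3 reads) paired over 20 bases with the 24 nt PC-5p-534856_2 (4 reads, -29.2 kcal per mol) and over 19 with the 24 nt PC-5p-475655_2 (3 reads, -22.3 kcal per mol).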
